A study of Mus musculus with 8 samples.

Results

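The genes described here encode the basement membrane of mouse skin and the hemidesmosome, the junction that fastens basal keratinocytes to it. They are laminin chains, chains of collagens IV, VII and XVII, nidogens, perlecan, agrin, Fras and Frem proteins, plakins and a few partners. They were chosen by gene symbol, with integrins left out, under a rule that uses no measured value. Earlier results of these data were known when they were chosen. All 34 were found among the 23433 symbols of the count files, and 30 passed the filter on low counts. *Lamc3*, *Col4a3*, *Frem3* and *Egflam* did not pass it and are given as levels only.

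The basement membrane is a sheet of 2 linked networks, 1 of laminin and 1 of collagen IV, which nidogens, perlecan and agrin join. Under epidermis the main laminin is laminin-332, which binds integrins of the hemidesmosome. Collagen XVII spans the plasma membrane at the hemidesmosome, plectin and dystonin (the plakins) tie it to keratin filaments inside the cell, and collagen VII forms the anchoring fibrils that hold the sheet to the dermis. Fras1, Frem1 and Frem2 form a complex on the dermal side of the epidermal basement membrane before birth, and loss of its members causes embryonic blisters.

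RNA was sequenced from 2 keratinocyte populations sorted from the skin of 4 pups at postnatal day 0.5, so each group has n = 2 pups and each pup gave both populations. Sorted cells carried the K14RFP reporter and stained high for alpha6 integrin. Those high for P-cadherin were labelled hair germ (HG), the bud from which a follicle grows, and those low for it interfollicular epidermis (IFE), the epidermis between follicles. Transgenic (Tg) pups 4 and 6 carried pTRE2-200bcl, a microRNA-200 construct that doxycycline can switch on, and also K14rtTA, the transactivator that does so in cells with an active keratin 14 promoter. Control pup 3 carried K14rtTA alone and control pup 5 carried pTRE2-200bcl alone, so the controls differ in genotype from each other. All pups were of mixed strain background and all dams ate doxycycline chow through pregnancy.

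The miR-200 family is known for holding epithelial cells in their epithelial state, and its members fall into 2 classes by the seed, bases 2 to 8 of the mature strand, which pairs with target sites in 3' UTRs. The 5 mature sequences from RefSeq (GRCm38.p6) are shown because the seed decides which sites can pair, with the seed in capitals. miR-200a and miR-141 share 1 seed, and miR-200b, miR-200c and miR-429 share the other.
mmu-miR-200a-3p: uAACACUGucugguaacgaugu
mmu-miR-141-3p: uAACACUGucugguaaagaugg
mmu-miR-200b-3p: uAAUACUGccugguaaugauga
mmu-miR-200c-3p: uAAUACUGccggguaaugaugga
mmu-miR-429-3p: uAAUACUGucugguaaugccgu

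The letters that pair with these seeds, CAGTGTT and CAGTATT, were looked for in the 3' UTR, read in the sense of the mRNA, of the transcript with the longest coding sequence of each gene (GENCODE vM21, GRCm38). At least 1 was found in 12 of the 33 members with a 3' UTR. Among tested genes it was 10 of 30 members, or 33.3%, against 27.8% of the 12653 with a 3' UTR. Among members, *Frem2* and *Dag1* hold 2 CAGTATT each, *Fras1*, *Frem1*, *Col4a5*, *Col4a6*, *Col4a3* and *Lamc3* hold 1, and *Col4a1*, *Col4a4* and *Npnt* hold 1 CAGTGTT. *Lamc1* holds 1 CAGTATT and 2 CAGTGTT. Neither was found in *Col17a1*, *Col7a1*, *Lamb2*, *Lamb3*, *Agrn* or *Nid2*. The sites of the 3 genes that hold one and fell in Tg IFE are printed below in 30 bases of context on the strand of the gene, with the matching letters in capitals.
*Fras1*, chr5:96783267-96783296, plus strand: tgagacgttatgctggCAGTATTacagggt
*Frem2*, chr3:53515670-53515699, minus strand: tgagcctagatgtttaCAGTATTgaacccg
*Frem2*, chr3:53514098-53514127, minus strand: ctgcaataggaaatgtCAGTATTctttctc
*Lamc1*, chr1:153220351-153220380, minus strand: ggcaaacacccgctctCAGTGTTtctcaag
*Lamc1*, chr1:153219869-153219898, minus strand: cgtcgtgcctagtcccCAGTGTTttgctcc
*Lamc1*, chr1:153218952-153218981, minus strand: atgtttaaaaagaaaaCAGTATTttattta
These are matches of letters, and pairing was not measured. In IFE the median log2 fold change, Tg against control, was -0.61 over the 10 tested members with a match and -0.55 over the 20 without. Over all tested genes with a 3' UTR the same medians were -0.11 and 0.03. In HG the medians were -0.38 and -0.22 for members, and -0.05 and 0.08 for all tested genes.

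The libraries held 7109871 to 14039583 counts in genes. Levels are CPM, counts scaled to a library size that TMM (trimmed mean of M values) corrects, and a count of 0 allows up to 3 counts, or 0.199 to 0.522 CPM by library, for counting error only. The feature miR200primary of the count files lay between 526 and 797 CPM in the Tg libraries and between 0.176 and 3.83 CPM in the controls, as the labels have it. The ribosomal RNA symbol Rn45s took 30.6% of counts in control IFE of pup 3 and 29.0% in Tg IFE of pup 4, against 3.56% to 13.0% elsewhere. Pup 4 was the only pup with more than 4 counts of 4 Y-linked genes in a library. The HG label was checked on 10 fixed markers, of which *Shh*, *Lhx2*, *Edar*, *Krt17* and *Ptch1* were higher in HG than IFE of Tg pups, and none was called in control pups. *Cdh3*, which encodes P-cadherin, is among the 10 and was not called in either genotype. It was at 353 and 436 CPM in control HG and 293 and 386 in control IFE, which overlapped. In Tg pups it was at 421 and 576 CPM in HG and 281 and 309 in IFE. All 8 basal keratinocyte markers were detected in every library.

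Within a library, levels of different genes are compared per kilobase of exon. The length pools all annotated exons of a gene, such as 41155 bases for *Dst* and 10745 for *Lama3*. Exons of transcripts that these cells do not use thus lower a per-length level, and transcript use was not measured. *Col17a1* had the highest per-length level of the 34 members in each of the 4 groups. It averaged 563 ± 32.3 CPM per kilobase (SD, n = 2) in control HG, 399 ± 41.1 in Tg HG, 691 ± 28.8 in control IFE and 358 ± 10.2 in Tg IFE. *Lama3* and *Lamb3*, which encode chains of laminin-332, averaged 111 and 103 CPM per kilobase over the groups, and *Agrn*, the proteoglycan agrin, averaged 100.5. *Col4a1* led the collagen IV chains with 60.8, *Dag1*, the laminin receptor dystroglycan, averaged 47.1, and *Frem2* led its group with 41.7.

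On the CPM scale 17 members were above 100 in every library and 8 were below 10 in every library. The summed level of the 34 was 18671 and 20387 CPM in control HG, 16294 and 14603 in Tg HG, 16898 and 20823 in control IFE, and 11372 and 11416 in Tg IFE. The Tg sums were below both control sums in each population, and those of IFE were the lowest of the 8. In bulk RNA, fewer cells of a type and less RNA per cell cannot be told apart, here and in all results that follow.

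**Figure D1:**
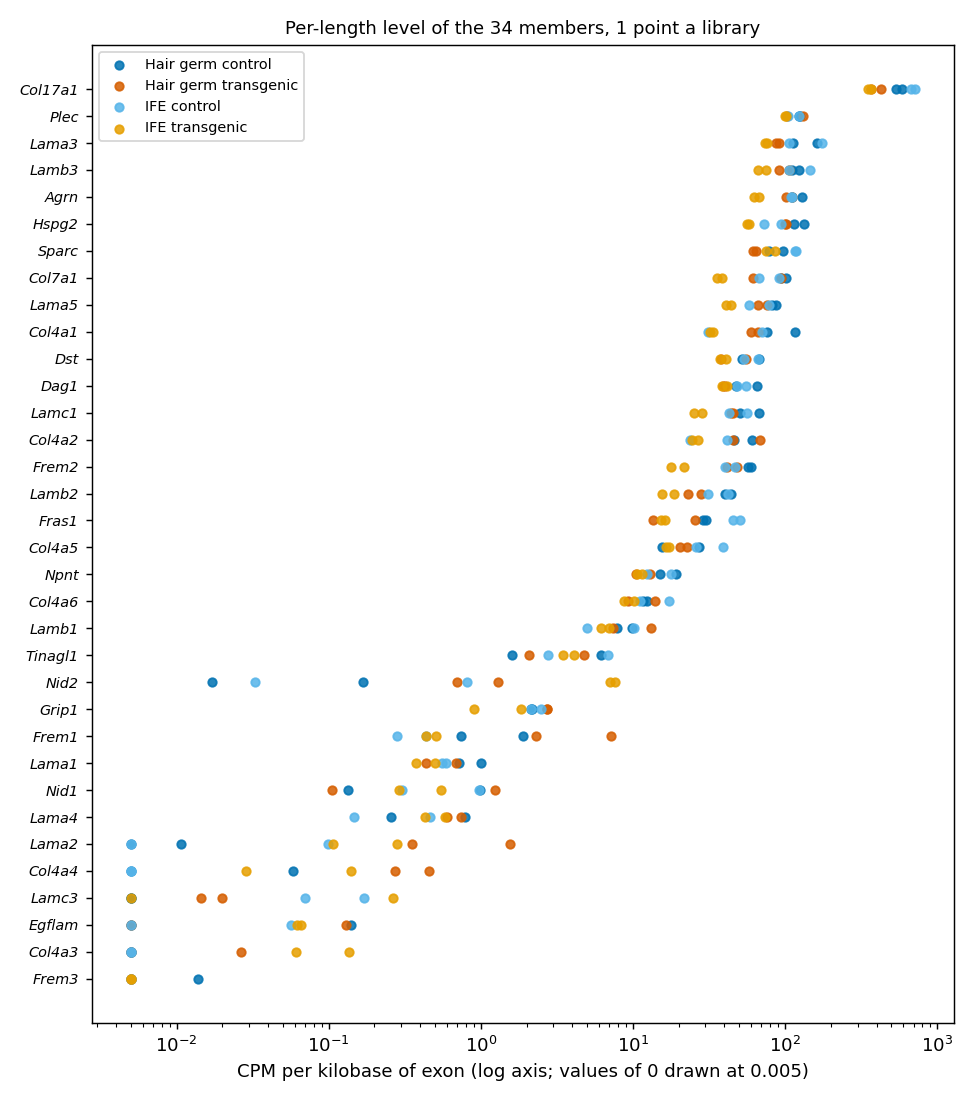
Per-length level of each of the 34 members (CPM per kilobase of exon, log axis, zeros drawn at 0.005), 1 point a library, coloured by group, ordered by mean. *Col17a1* stands at the top in all groups, and the levels of low members such as *Nid2* and *Lama2* spread widely between libraries.

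In Tg IFE, 8 members fell and 1 rose against control IFE, by edgeR's quasi-likelihood test with Benjamini-Hochberg adjustment over 14176 genes and a threshold of 0.05. The 8 came from several layers of the structure: the laminin chains *Lamb2*, *Lamb3* and *Lamc1*, collagens *Col7a1* and *Col17a1*, agrin, and the Fras complex genes *Fras1* and *Frem2*. *Nid2*, which encodes nidogen-2, rose. Over all genes tested, 1.35% were called lower, 4.99% higher and 6.34% either way. The median log2 fold change was -0.57 over the 30 members and -0.01 over all genes, and 25 members lay below 0. Both Tg libraries were below both control libraries for 20 members (25.0% of all genes) and above them for 4 (27.9%).

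In Tg HG, no member fell and 1, *Lama2*, rose against control HG by the same test, beside 0.190% of all genes called lower, 0.762% higher and 0.952% either way. At unadjusted p under 0.05 there were 9 members of 30, against 17.1% of all genes. By DESeq2 3 members were called, *Lama2* and *Nid2* higher and *Col17a1* lower, beside 648 genes in all. The median log2 fold change was -0.26 over the members and 0.04 over all genes, and 20 members lay below 0. Both Tg libraries were below both control libraries for 15 members (16.9% of all genes) and above them for 5 (22.4%). *Lama2* was not called with any 1 of the 8 libraries left out (adjusted p 0.0702 to 0.192), so the count of 1 became 0 each time.

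The calls in Tg IFE also rested on single libraries. In place of 9 members, and 899 genes in all, there were 3 members and 303 genes without control IFE of pup 5, 2 and 344 without Tg IFE of pup 4, and 3 and 500 without Tg IFE of pup 6. There were 5 members without either Tg HG library, beside 726 genes without that of pup 4 and 708 without that of pup 6. Leaving out the other 3 gave 9 to 11 members and 537 to 1209 genes, so that calls over all genes moved too. Without both libraries of pup 4 there were 0 members and 207 genes, with *Fras1* at a log2 fold change of -1.51 (adjusted p = 0.0678), and without the 2 libraries rich in Rn45s there were 1 member, *Nid2*, and 195 genes. By DESeq2 12 members were called, the same 9 with *Lama3*, *Lama5* and *Col4a5* lower, and 1071 genes. Only *Fras1* was called in all 8 fits that left out 1 library, while *Nid2* and *Frem2* were called in 7 each.

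Other cells and the keratinocyte signature moved with these results. Summed over 15 immune markers, the level was 273 and 139 CPM in control IFE and 4089 and 3210 CPM in Tg IFE, where all 15 rose, and 73.1 to 183 in control HG against 303 and 456 in Tg HG, where 5 rose. Summed over 8 basal keratinocyte markers, the level was 30701 and 33335 CPM in control IFE and 15499 and 15822 in Tg IFE, where *Krt14*, *Krt15*, *Itgb4* and *Trp63* fell and the list's median log2 fold change was -0.84. In HG the same sum was 28179 and 23669 CPM in controls and 19699 and 16072 in Tg pups, with 0 markers called. With libraries scaled to the summed counts of these 8 genes, an alternative chosen after seeing the data, 0 members were called lower in Tg IFE and 3 higher (*Nid2*, *Dag1* and *Plec*), while 4912 of the 14176 genes were called. That scaling moved the median of all genes from -0.01 to 1.02 and the members' median from -0.57 to 0.47. A change of library scale moves all genes of a comparison by nearly the same amount. The gap between members and all genes was thus bound to stay, and the second scale gives no separate reading of it. The part of these cells in the members' changes was not tested.

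**Figure D2:**
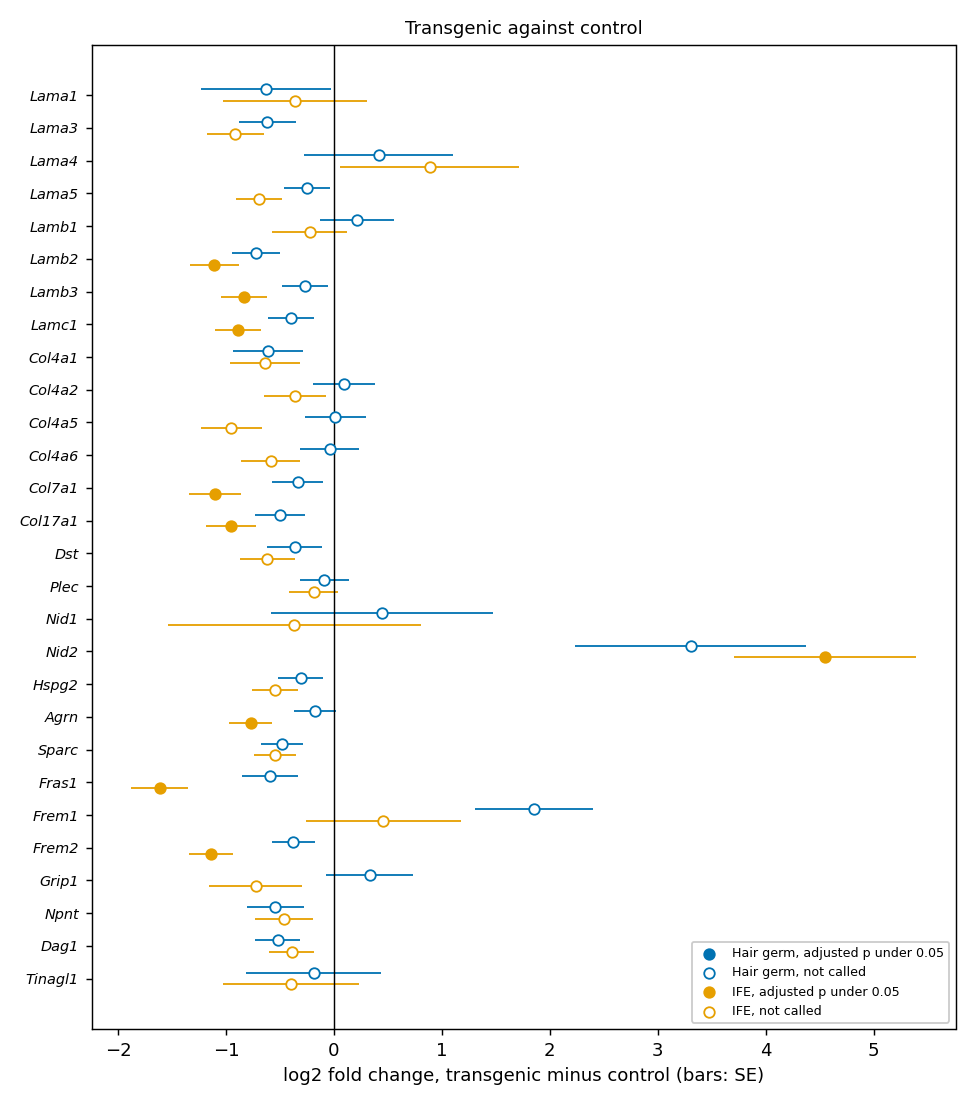
log2 fold change (x axis) of Tg against control pups in HG and in IFE for the tested members except *Lama2* and *Col4a4*, whose control counts were at or near 0. Points are edgeR estimates, bars are SE and filled points have adjusted p under 0.05; most IFE points lie left of 0, with *Nid2* far to the right.

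Among laminin alpha chains, *Lama3*, the alpha chain of laminin-332, was at 1149 and 1878 CPM in control IFE and 792 and 817 in Tg IFE. In HG it was at 1210 and 1744 CPM in controls and 988 and 940 in Tg pups. Tg libraries were below controls in both populations, yet neither difference passed edgeR's test: the log2 fold change was -0.91 in IFE (SE 0.26, adjusted p = 0.068) and -0.62 in HG (adjusted p = 0.26). *Lama5*, the alpha chain of laminin-511, missed it as well in IFE (-0.69, adjusted p = 0.0829); both were called lower in IFE by DESeq2. *Lama1* and *Lama4* stayed below 10 CPM in every library.

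*Lama2* encodes the alpha chain of laminin-211, known mainly from muscle and nerve (chromosome 10, 26980036 to 27619758, minus strand). It had 2 and 0 counts in control HG and 66 and 209 counts in Tg HG, or 0.176, 0, 5.81 and 25.3 CPM. In IFE it was at 0 and 1.61 CPM in controls and 1.75 and 4.61 in Tg pups. The Tg HG libraries were above both controls and differed widely from each other. The ratio of summed counts was 185, with a 95% counting interval of 50.8 to 1538, and the fitted log2 fold change was 7.43 (SE 1.55, adjusted p = 0.0459), which depends on the near absence of control counts. Of its exon bases 3.86% lie opposite *Gm48084*, and whether strand was used in counting was not given in the sources used here. Markers of other cells differed by list in the same libraries. Summed over 8 mural and muscle markers the level was 132 and 73.0 CPM in control HG and 86.4 and 85.9 in Tg HG, with 0 of 3 tested called. *Cspg4* alone made 125 and 67.6 CPM of that sum in control HG and 77.7 and 79.0 in Tg HG. *Tagln* was at 0 in both control HG libraries and at 4.05 and 4.97 CPM in Tg HG (edgeR adjusted p = 0.0742). *Acta2* went the other way, from 6.85 and 5.38 CPM in control HG to 4.14 and 1.09 in Tg HG. Summed over 8 Schwann markers the level was 176 and 168 CPM in control HG and 279 and 223 in Tg HG, with 0 of 4 tested called. *Erbb3* alone made 168 and 151 CPM of that sum in control HG and 250 and 180 in Tg HG. *Sox10*, shared with melanocytes, was at 0 in both control HG libraries and at 2.90 and 6.54 CPM in Tg HG (adjusted p = 0.0938). For 10 melanocyte markers the sum was 32.8 CPM in both control HG libraries and 154 and 194 in Tg HG, and *Dct*, *Kit*, *Gpnmb* and *Pmel* rose there. Summed over 10 endothelial markers the level was 8.43 and 7.51 CPM in control HG and 44.8 and 69.9 in Tg HG, of which *Flt1* alone made 32.7 and 56.1, with 0 of 6 tested called and *Cdh5* and *Emcn* at 0 in all 4 libraries. Over 10 fibroblast markers it was 188 and 374 CPM in control HG and 87.3 and 124 in Tg HG, with 0 of 5 tested called. For 8 dermal papilla markers the sum was 1.14 and 6.11 CPM in control HG and 15.5 and 15.8 in Tg HG. Of these markers 4 were tested and 0 called. For 6 adipocyte markers the sum was 12.7 and 1.99 CPM in control HG and 39.9 and 30.2 in Tg HG. *Lpl* alone made 35.6 and 28.0 CPM of it in Tg HG, and 0 of 2 tested were called. The part of such cells in the *Lama2* counts was not tested.

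The laminin beta and gamma chains had 3 of 4 tested members lower in Tg IFE. *Lamb3*, the beta chain of laminin-332 (chromosome 1, 193207699 to 193343878, plus strand), was at 699 and 964 CPM in control IFE and 498 and 437 in Tg IFE. Its HG values were 737 and 823 CPM in controls and 698 and 600 in Tg pups. The groups did not overlap in either population, and the change passed in IFE (log2 fold change -0.83, SE 0.22, adjusted p = 0.0421) and not in HG (-0.26, adjusted p = 0.566).

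*Lamb2*, the beta-2 chain (chromosome 9, 108479736 to 108490530, plus strand), was at 189 and 256 CPM in control IFE and 113 and 93.9 in Tg IFE. In HG it was at 271 and 244 CPM in controls and 171 and 140 in Tg pups. Tg libraries were low in both populations, and the fall in IFE was called (log2 fold change -1.11, SE 0.23, adjusted p = 0.0124) while the HG value was -0.72 (adjusted p = 0.135). *Lamc1*, the gamma chain of most laminins (chromosome 1, 153218922 to 153332786, minus strand), was at 357 and 462 CPM in control IFE and 207 and 235 in Tg IFE. Control HG had 418 and 555 CPM and Tg HG 367 and 374. It fell in IFE (log2 fold change -0.89, SE 0.22, adjusted p = 0.0306), and the HG value was -0.39 (adjusted p = 0.38). *Lamb1* did not pass in either population, and *Lamc3* was at 1.62 CPM or less everywhere.

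No collagen IV chain was called between genotypes by edgeR with all libraries. *Col4a1*, which with *Col4a2* forms the network common to most basement membranes, was at 232 and 528 CPM in control IFE, 238 and 251 in Tg IFE, 566 and 873 in control HG and 497 and 446 in Tg HG. Control IFE thus spread more than the genotypes differed. *Col4a5*, an X-linked chain that with *Col4a6* forms a network of skin, was the nearest to a call in IFE at -0.95 (adjusted p = 0.0752), and it was called lower there by DESeq2 and by edgeR without control HG of pup 3 or of pup 5. *Col4a3* and *Col4a4*, known from kidney, were scarce: in Tg IFE they had 18 and 15 counts against 0 in control IFE. With a floor of 3 counts over the control group the ratios were 5.09 and 4.24, which leave out the counting error of the Tg counts. For *Col4a4* the lower 95% counting limit of the ratio was 3.04. In HG *Col4a4* had 7 and 0 counts in controls and 55 and 24 in Tg pups (log2 fold change 3.83, edgeR adjusted p = 0.166). *Col4a4* was not called and *Col4a3* was not tested.

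*Col17a1* (chromosome 19, 47646344 to 47692094, minus strand) was at 4030 and 4275 CPM in control IFE and 2108 and 2195 in Tg IFE. The HG libraries had 3246 and 3520 CPM in controls and 2573 and 2224 in Tg pups. Replicates lay close together and the genotypes apart in both populations; the fall was called in IFE (log2 fold change -0.95, SE 0.23, adjusted p = 0.0314) and the HG value was -0.50 (adjusted p = 0.299). *Col7a1* (chromosome 9, 108953586 to 108984875, plus strand) was at 697 and 943 CPM in control IFE and 370 and 395 in Tg IFE. In HG it was at 1044 and 969 CPM in controls and 964 and 630 in Tg pups. Its fall in IFE was called (log2 fold change -1.10, SE 0.24, adjusted p = 0.0187), and the HG value was -0.34 (adjusted p = 0.508). The plakins did not pass: in IFE the log2 fold change of *Plec*, plectin, was -0.19 (adjusted p = 0.804) and that of *Dst*, dystonin, was -0.62 (adjusted p = 0.227).

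Among the linkers, *Agrn* (chromosome 4, 156165290 to 156197488, minus strand) was at 1024 and 1034 CPM in control IFE and 629 and 578 in Tg IFE. The HG values were 1201 and 1025 CPM in controls and 936 and 1036 in Tg pups, where the groups overlapped. It fell in IFE (log2 fold change -0.77, SE 0.20, adjusted p = 0.0387) and the HG value was -0.17 (adjusted p = 0.694). *Hspg2*, perlecan, did not pass in IFE (-0.55, adjusted p = 0.189), nor did *Sparc*, a collagen-binding matrix protein (-0.55, adjusted p = 0.147).

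*Nid2* (chromosome 14, 19751265 to 19811787, plus strand) moved the other way. It was at 4.18 and 0.17 CPM in control IFE and 36.7 and 39.5 in Tg IFE. Control HG was at 0.0879 and 0.864 CPM and Tg HG at 6.69 and 3.64. Tg libraries were above controls in both populations, the rise in IFE was called (log2 fold change 4.55, SE 0.84, adjusted p = 0.00533) and the HG value was 3.31 (adjusted p = 0.144). In IFE the ratio of summed counts was 26.0, with a counting interval of 17.6 to 39.98. Of its exon bases 8.45% lie opposite *Rtraf*, whose own log2 fold change in IFE, under its older symbol in the files, was 0.12 (adjusted p = 0.909). Its partner *Nid1* was at 0.727 to 8.63 CPM with groups that overlapped. The immune markers that rose in Tg IFE are given above. Other lists moved there too. The melanocyte sum was 24.4 and 21.3 CPM in control IFE and 166 and 144 in Tg IFE, with 5 of 10 called higher. The adipocyte marker *Pparg* was called higher, and 6 tested endothelial markers had a median log2 fold change of 2.37 with 0 called. The fibroblast sum was 110 and 292 CPM in control IFE and 54.1 and 72.7 in Tg IFE. The mural and muscle, Schwann and dermal papilla sums overlapped. The part of any of these cells in the *Nid2* level was not tested.

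*Fras1* (chromosome 5, 96373955 to 96784728, plus strand), a transmembrane matrix protein, had the largest fall among the members called in Tg IFE. It was at 809 and 897 CPM in control IFE and 270 and 287 in Tg IFE. In HG it was at 509 and 538 CPM in controls and 241 and 453 in Tg pups, so that the Tg HG libraries were both low and far apart. The log2 fold change was -1.61 (SE 0.27, adjusted p = 0.00322) in IFE, and -0.59 (adjusted p = 0.274) in HG. In IFE the ratio of summed counts was 0.324.

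*Frem2* (chromosome 3, 53513938 to 53657355, minus strand), its transmembrane partner, was at 534 and 621 CPM in control IFE and 236 and 288 in Tg IFE. The corresponding HG values were 758 and 792 CPM in controls and 552 and 643 in Tg pups. The groups did not overlap in either population; the fall in IFE was called (log2 fold change -1.14, SE 0.20, adjusted p = 0.00542) and the HG value was -0.37 (adjusted p = 0.369). *Frem1*, the secreted member (chromosome 4, 82897920 to 83052339, minus strand), was at 26.6 and 10.3 CPM in control HG and 32.5 and 100 in Tg HG. In IFE it was at 6.09 and 3.90 CPM in controls and 7.15 and 6.12 in Tg pups. Tg values were above controls in both populations without a call (HG log2 fold change 1.85, adjusted p = 0.124). *Grip1*, the scaffold that carries Fras1 and Frem2 to the cell surface, was at 17.6 and 17.2 CPM in control HG, 21.8 and 21.9 in Tg HG, 17.2 and 20.03 in control IFE, and 7.28 and 14.7 in Tg IFE. It was high in Tg HG and low in Tg IFE, with an adjusted p of 0.726 for the difference between those effects.

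Dystroglycan and its neighbours gave no call. *Dag1* was at 418 and 305 CPM in control HG, 256 and 248 in Tg HG, 309 and 355 in control IFE, and 243 and 264 in Tg IFE. Tg libraries were below controls in both populations, with log2 fold changes of -0.52 (adjusted p = 0.227) in HG and -0.39 (adjusted p = 0.391) in IFE. *Tinagl1*, a secreted basement membrane protein, was at 7.03 to 29.7 CPM with overlapping groups. *Npnt*, the alpha8-integrin ligand nephronectin, was at 52.5 to 97.0 CPM and was not called.

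**Figure D3:**
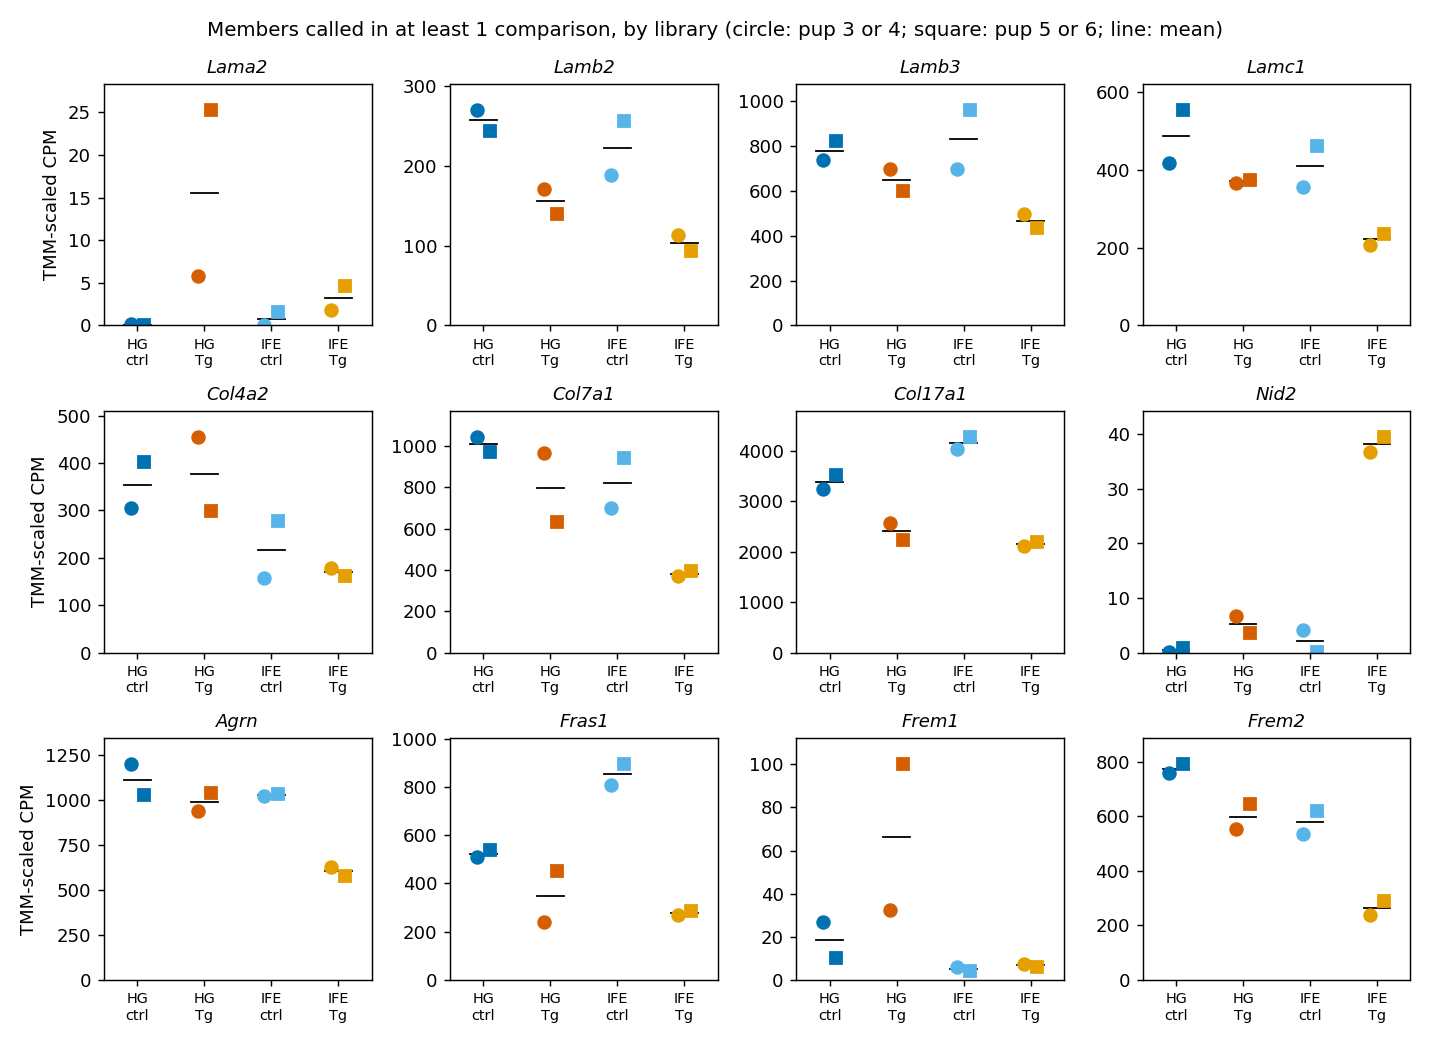
CPM of each called member in the 8 libraries, by group, 1 point a pup, linear axes that start at 0. The Tg IFE points of the 8 genes that fell lie below both control IFE points, and those of *Nid2* lie above.

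A fall called in IFE and not in HG does not show that the populations responded differently. The difference of the Tg effects, HG minus IFE, was tested in the same edgeR fit and 0 of 30 members passed, nor did any by DESeq2 or limma-voom, beside 0.134% of all genes called. At unadjusted p under 0.05 there were 5 members of 30, against 8.11% of all genes, and the smallest adjusted p was 0.476, for *Fras1* (difference 1.02, SE 0.37 on the log2 scale). The median difference was 0.44 over the members and 0.06 over all genes, with 24 members above 0.

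In control pups no member differed between HG and IFE by edgeR, DESeq2 or limma-voom, beside 0.00705% of all genes, and 5 members of 30 had unadjusted p under 0.05, against 8.47% of all genes. The median log2 difference, HG minus IFE, was 0.12 over the members and -0.04 over all genes. Both HG libraries were above both IFE libraries for 8 members (14.2% of all genes) and below them for 3 (19.2%). *Frem1* had the smallest adjusted p, 0.502, with a log2 difference of 1.93 (SE 0.66), and *Fras1* stood at -0.70 (adjusted p = 0.542).

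In Tg pups 4 members were higher in HG than in IFE and 1 was lower, beside 0.875% of all genes called higher, 3.75% lower and 4.62% either way. The log2 difference was 3.32 for *Frem1* (SE 0.61, adjusted p = 0.00928), 1.19 for *Frem2* (SE 0.20, adjusted p = 0.00604) and 1.06 for *Col7a1* (SE 0.24, adjusted p = 0.0293). *Col4a2*, at 456 and 299 CPM in Tg HG and 178 and 161 in Tg IFE, had 1.16 (SE 0.29, adjusted p = 0.0437), against 304 and 402 CPM in control HG and 157 and 277 in control IFE. *Nid2* was lower in HG (-2.85, SE 0.68, adjusted p = 0.0309). The median was 0.53 over the members and 0.02 over all genes, and both HG libraries were above both IFE libraries for 20 members (26.4% of all genes) and below for 2 (28.9%). These values use the Tg IFE libraries that also enter the IFE comparison of genotypes.

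With pup as a block, which pairs the populations of each animal, 10 members were called in Tg pups in place of 5, beside 1018 genes in place of 655: *Agrn*, *Col4a1*, *Col4a2*, *Col7a1*, *Frem1*, *Frem2*, *Hspg2*, *Lama5* and *Lamc1* higher in HG and *Nid2* lower. Without the block, the count was 8 without control HG of pup 5 or control IFE of pup 3, 9 without control IFE of pup 5, 2 without Tg HG of pup 4, 0 without Tg HG of pup 6, 0 without Tg IFE of pup 4 and 1 without Tg IFE of pup 6. It was 0 without pup 4 and 0 without the 2 libraries rich in Rn45s. Over all genes these fits called between 0 genes, without pup 4, and 1004, without control HG of pup 5, so that calls over all genes moved too. Of 15 immune markers 14 were lower in Tg HG than in Tg IFE, with a median log2 difference of -3.36, and their part in the members' differences was not tested.

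**Figure D4:**
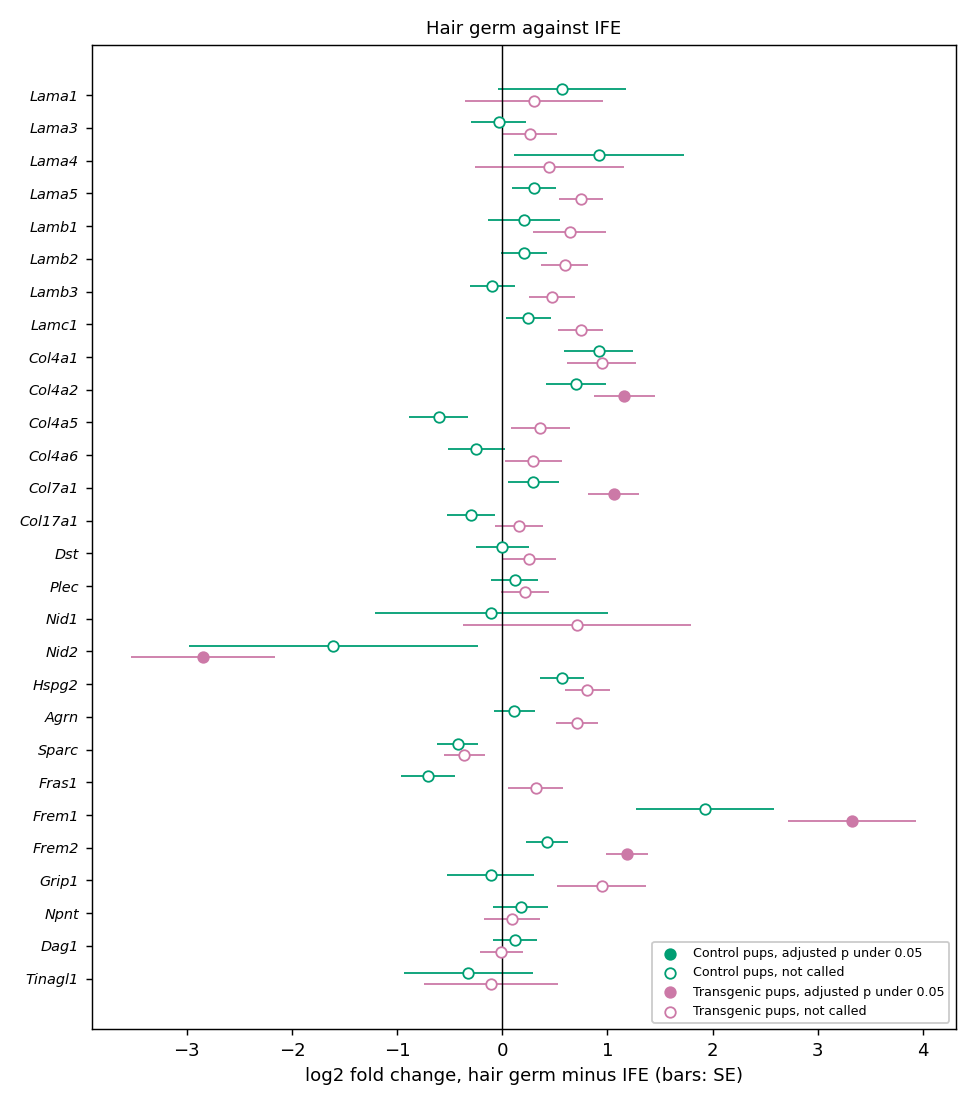
log2 difference between HG and IFE (x axis, HG minus IFE) in control and in Tg pups for the tested members except *Lama2* and *Col4a4*. Points are edgeR estimates, bars are SE and filled points have adjusted p under 0.05; in Tg pups *Frem1*, *Frem2*, *Col7a1* and *Col4a2* lie to the right and *Nid2* to the left.

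A ratio of 2 members within a library does not depend on how that library was scaled. Of 13 such ratios computed, 4 are described, chosen after their values were seen and with no test. *Fras1* to *Frem2*, per kilobase of exon, was 0.503 and 0.508 in control HG and 0.327 and 0.527 in Tg HG, and 1.13 and 1.08 in control IFE and 0.854 and 0.746 in Tg IFE. It was thus lower in HG than in IFE in 4 of 4 pups, with no overlap between populations. *Col7a1* to *Col17a1* was 0.161 to 0.219 in HG and 0.101 to 0.129 in IFE, higher in HG in 4 of 4 pups. *Lamb2* to *Lamb3* was 0.289 to 0.399 in the 4 control libraries and 0.234 to 0.267 in the 4 Tg libraries. *Col4a2* to *Col4a1* in HG was 0.606 and 0.520 in controls and 1.03 and 0.757 in Tg pups, while in IFE it was 0.761 and 0.591 in controls and 0.840 and 0.722 in Tg pups.

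**Figure D5:**
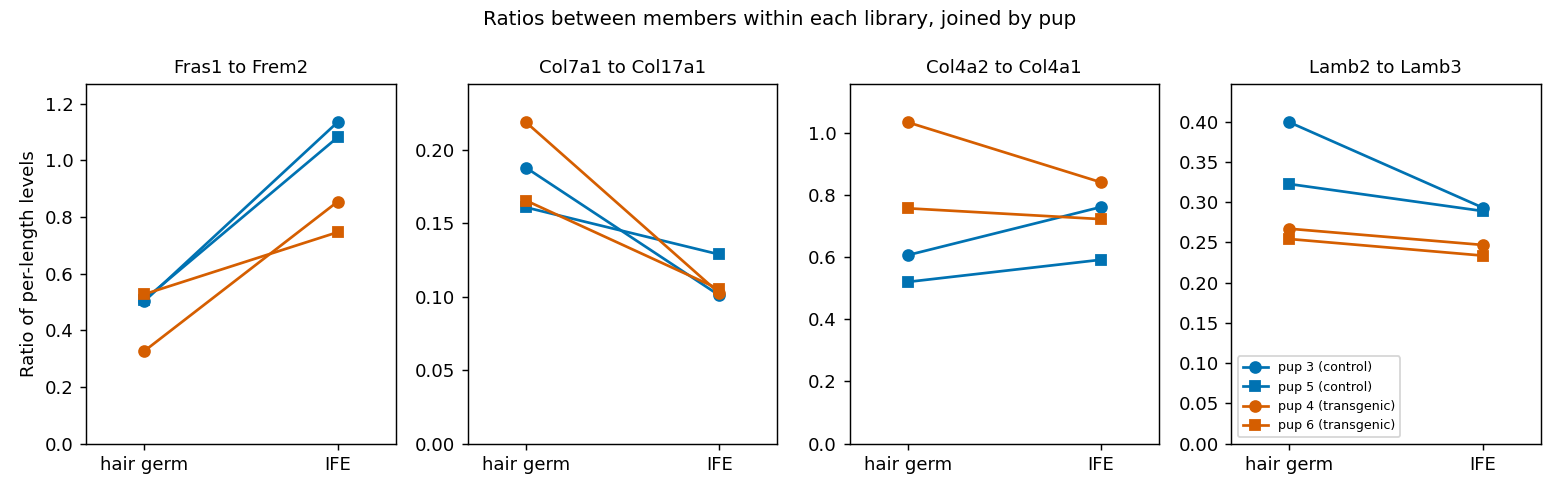
Ratio of per-length levels of 2 members within a library, HG and IFE of the same pup joined by a line, control and Tg pups coloured, axes from 0. The *Fras1* to *Frem2* lines of all 4 pups rise from HG to IFE and those of *Col7a1* to *Col17a1* fall.

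Across the 8 libraries, log2 CPM of the 21 members above 40 CPM in every library moved largely together. Over their 210 pairs the median Pearson r was 0.657, from -0.352 to 0.978, as a description, since the libraries share pups, groups and scaling. Pairs of other genes were not computed, so whether this is particular to the members was not tested. *Lama5* and *Frem2* had 0.978, *Lama3* and *Lamb3* of laminin-332 had 0.920, and *Col4a2* and *Sparc* had the lowest value. *Col4a1* and *Col4a2*, whose annotated RefSeq starts on opposite strands lie 21 bases apart, had 0.893. *Col4a5* and *Col4a6*, with starts 1343 bases apart, had 0.596.

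Promoter windows of 300 bases from RefSeq (GRCm38.p6) matched 25 members with 35 windows and were searched on both strands for 4 motifs. CAGGTG, an E-box of the kind Zeb factors bind, was in 28.6% of member windows and 20.2% of all 32851 windows. GGGCGG, the GC box, was in 60.0% and 35.7%, CCAAT in 42.9% and 37.4%, and TGANTCA, the AP-1 site, in 8.57% and 7.81%. A match is a description of letters, and binding was not measured.

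Other genes of the basement membrane were read from 4 lists. Over all genes tested, 1.35% were called lower in Tg IFE, 0.762% higher in Tg HG, and 0.875% higher in HG than in IFE of Tg pups. The calls of these lists were not followed through the fits with libraries left out. Of 18 tested matrix enzymes and chaperones, 2 fell in Tg IFE: *Serpinh1*, the collagen chaperone HSP47 (log2 fold change -0.96, adjusted p = 0.0241), and *Leprel1*, a collagen prolyl 3-hydroxylase (-1.06, adjusted p = 0.0484). Of 19 tested other basement membrane proteins, *Postn*, periostin, fell in Tg IFE (-1.26, adjusted p = 0.0082) and *Hmcn1*, hemicentin-1, a partner of fibulins at cell junctions, rose in Tg HG (3.94, adjusted p = 0.0404). In the same list 4 genes were higher in Tg HG than in Tg IFE: *Fn1*, fibronectin (1.76, adjusted p = 0.00543), *Fbln2*, fibulin-2 (1.29, adjusted p = 0.0136), *Vwa2*, a partner of the Fras complex (0.90, adjusted p = 0.0239), and *Smoc2*, a Sparc-related protein (0.81, adjusted p = 0.0386). Of 15 tested receptors other than integrins, *Lrp4*, an agrin receptor (-1.30, adjusted p = 0.00569), *Bcam*, a receptor of laminin alpha-5 (-0.81, adjusted p = 0.0334), and *Gpc3*, a glypican (-0.91, adjusted p = 0.0405), fell in Tg IFE, and *Gpc3* (1.29) and *Lrp4* (1.13) were higher in HG than in IFE of Tg pups. Of 18 tested genes of dystroglycan glycosylation and its complex, 0 were called in any of the 5 comparisons by edgeR. In Tg IFE the median log2 fold changes of the lists were 0.14 for the enzymes, -0.12 for the other proteins, -0.40 for the receptors and -0.29 for the dystroglycan list. Over all genes tested the median was -0.01.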

How the data were processed

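The 8 libraries (SMARTer stranded total RNA kit, per the labels' protocols) were deposited by the authors as raw counts per gene symbol. The tools named are TopHat, HTSeq and DESeq2 with build mm10 (GRCm38), per the submitters' processing notes; for versions and use of strand, not given in the sources used here. 5 summary lines a library were left out. The authors' matrix of normalised values was not used here.

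Counts were tested with edgeR 4.0.16 in R 4.3.3 (filterByExpr by group, TMM, glmQLFit with legacy = FALSE on 4 group means over all 8 libraries, 4 residual degrees of freedom, glmQLFTest, two-sided, Benjamini-Hochberg over 14176 genes, threshold 0.05), and the procedure was tested on simulated data. Lone samples in fits that leave out a library are assumed to vary like the other groups. Alternatives were DESeq2 1.42.0, limma 3.58.1 (voom), other scaling and filters, left-out libraries and a pup block. Each pup number is 1 animal by the labels, which pairs the populations; deviations from group means correlated at 0.117 in controls and 0.0868 in Tg pups over 14176 genes.

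Positions, exon lengths and 3' UTRs come from GENCODE vM21 (GRCm38). The rule for the 34 members uses no measured value, yet members and lists were chosen with earlier results of these data known. Values in every library are given for members with adjusted p under 0.05 in a comparison and for the highest per-length member of each role, and genes of the 4 lists of other basement membrane genes are named where called. *Lama5* and other uncalled members named are examples chosen after their values were seen.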

Additional observations from a re-analysis of the deposited data

How the results depend on the processing

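The counts of members called depended on the processing. Calls over all genes moved too. Between genotypes in HG the main fit called 135 genes. There were 316 with library sizes only, 648 with DESeq2, 17 with voom and 54 with the legacy quasi-likelihood method. With only the libraries compared there were 22, and 1022 when scaled to keratinocyte genes. Between genotypes in HG, the count of 1 was 2 with library sizes only, 3 with DESeq2, 0 with voom, 0 with the legacy quasi-likelihood method, 0 with only the libraries compared, 0 without pup 4, 0 without the libraries rich in Rn45s, 3 when scaled to keratinocyte genes, and 0 with any 1 library left out. Between genotypes in IFE, the count of 9 was 2 with library sizes only, which moved the median of all genes from -0.01 to 0.15 and that of the members to -0.42, 5 with the legacy method, 5 with only the libraries compared, 0 without pup 4, 1 without the Rn45s-rich libraries, 3 when scaled to keratinocyte genes, and 2 to 11 with 1 library left out. DESeq2 gave 12 there, voom 9, edgeR with DESeq2 size factors 9 and edgeR without the filter on low counts 8. Over all genes, the main fit called 899 in IFE. There were 909 with library sizes only, 541 with the legacy method, 1277 with only the libraries compared and 1071 with DESeq2. Voom called 661 genes, edgeR with DESeq2 size factors 899 and edgeR without the filter 867. With library sizes only and with only the libraries compared, members thus lost calls while calls over all genes did not fall. On the keratinocyte scale, which moved the median of all genes in IFE to 1.02, the log2 fold changes of *Agrn* (0.26), *Col17a1* (0.082), *Lamb3* (0.21) and *Lamc1* (0.15) reversed with that shift. Between populations of Tg pups, the count of 5 was 8 with DESeq2, 2 with the legacy method, 10 with only the libraries compared, 10 with the replicate block, 0 without pup 4, 0 without the Rn45s-rich libraries, 3 when scaled to keratinocyte genes, and 0 to 9 with 1 library left out. The cause of these moves was not tested, beyond the fewer samples of some fits. The other 2 comparisons gave 0 calls under each alternative run, and the replicate block changed no call there. With 2 pups a group, low members such as *Nid1* or *Tinagl1* have SEs over 0.6 on the log2 scale. Changes well above 1 SE could go uncalled: in IFE *Lama3*, at -0.91 with an SE of 0.26, was not called by edgeR.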
